A study of Homo sapiens with 6 samples.

Results

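RNA-seq counts of 9 genes that encode fibrinogen chains and other acute phase proteins were followed in the endometrial adenocarcinoma line HEC-1-A, of human origin, grown in McCoy's 5A medium with 10% fetal bovine serum. The genes were FGA, FGB, FGG, SERPINA1, SERPINA3, C3, LCN2, SAA1 and SAA2, taken by symbol from the 23228 genes in the count tables. There were 3 control libraries, which received vehicle by the study's methods (their labels name the medium alone), and 3 libraries of cells given SMIP34, a small-molecule inhibitor of the coregulator PELP1, at 20 µM for 24 h. The study asked which genes respond to that inhibitor. The 9 genes were selected on their counts in these 6 libraries, scaled to library size and compared between the 2 groups, so their differences between control and SMIP34 are described here without a test.

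The acute phase response is a change in the secreted proteins of the liver during infection or injury, driven mainly by the cytokines IL-6 and IL-1. Fibrinogen, the clot-forming protein of plasma, is one of its products and is built from pairs of Aα, Bβ and γ chains, encoded by FGA, FGB and FGG. Transcription of these genes in hepatocytes is known to depend on C/EBP factors and on STAT3, whereas the serum amyloid A genes and LCN2 also respond to NF-κB. Epithelial cells outside the liver can express several of these genes.

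Each library held between 19562711 and 22014835 counts on genes. Control replicate 1 had the fewest counts but a count in 16881 genes, against 15965 to 16100 genes in the other 5 libraries. The first principal component, with 44.8% of the variance, separated the groups. The 8 epithelial markers were all expressed and summed to 4915 to 5093 CPM (counts scaled to the library total) in controls and to 4716 to 4806 CPM with SMIP34. MUC1 was the lowest of them, at 9.75 CPM in controls. At an adjusted p under 0.05 in edgeR, 4 of the 8 fell and none rose. Their log2 fold changes were -0.12 (KRT8), -0.17 (KRT19), -0.32 (MUC1) and -0.07 (PAX8). Over all genes tested, 34.6% passed that threshold, 17.2% as lower. All 6 hepatocyte markers were under 1 CPM in every library, with APOB and APOA2 at 0. Their sum was 0.412 to 0.481 CPM in controls and 0.277 to 0.547 CPM with SMIP34. Of 7 leukocyte markers, 6 stayed under 1 CPM, with CD3E at 0, and the sum was 0.866 to 1.55 CPM in controls and 1.16 to 2.28 CPM with SMIP34. Of 6 fibroblast markers, 4 stayed under 1 CPM, with LUM at 0, and the sum was 3.63 to 4.47 CPM in controls and 4.69 to 5.18 CPM with SMIP34, most of it COL1A1. Of the 2 fibroblast markers tested, COL1A1 rose (2.96 to 4.19 CPM, adjusted p = 0.0151, edgeR), and PDGFRB was at 0.871 and 0.599 CPM (adjusted p = 0.307). The part of these markers in the results below was not tested. PELP1 mRNA, whose protein the compound targets, was 139 ± 6.50 CPM in controls and 156 ± 4.42 CPM with SMIP34 (SD, n = 3 each; log2 fold change 0.16, adjusted p = 7.5e-04, edgeR).

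The 3 fibrinogen genes lie together on chromosome 4 in hg19 (GRCh37), FGB at chr4:155484132-155493915 on the plus strand, FGA at chr4:155504280-155511897 and FGG at chr4:155525286-155533902, both on the minus strand. The bases before their starts are printed because these are the places where the liver factors named above are known to act, and because all 3 genes had a lower mean with SMIP34. The sequences are from the RefSeq promoter table (GRCh38.p14), up to the start of the gene model used for counting, on the strand of the gene. They lie at chr4:154590746-154590992 (FGA), chr4:154562730-154562979 (FGB) and chr4:154612751-154612906 (FGG), and matched GRCh37 exactly at 1 place each. Capitals mark matches to CTGGGAA, the type II IL-6 element, and to the STAT motif TTCNNNGAA, on either strand.
FGA: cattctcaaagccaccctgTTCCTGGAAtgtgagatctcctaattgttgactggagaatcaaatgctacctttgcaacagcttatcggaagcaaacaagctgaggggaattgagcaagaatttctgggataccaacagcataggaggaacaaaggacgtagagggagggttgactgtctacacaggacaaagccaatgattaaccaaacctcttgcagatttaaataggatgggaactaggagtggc
FGB: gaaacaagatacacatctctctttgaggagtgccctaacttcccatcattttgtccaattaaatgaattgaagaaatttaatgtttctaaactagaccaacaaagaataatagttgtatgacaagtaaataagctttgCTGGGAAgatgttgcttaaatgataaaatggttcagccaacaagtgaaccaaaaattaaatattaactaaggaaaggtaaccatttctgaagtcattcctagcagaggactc
FGG: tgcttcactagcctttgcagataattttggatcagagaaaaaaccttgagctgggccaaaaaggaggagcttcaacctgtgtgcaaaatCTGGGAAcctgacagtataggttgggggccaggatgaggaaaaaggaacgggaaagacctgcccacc

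The FGG sequence printed above ends 94 bases before its RefSeq start, and that of FGA 3 bases before. Counted from the RefSeq start, CTGGGAA was found in FGB at -112 to -106 and in FGG at -161 to -155, and in 11% of 27305 promoter windows of 300 bases. The STAT motif TTCNNNGAA was found in FGA at -231 to -223 and in 7.88% of windows. The C/EBP motif TTNNGNAA was found in all 3 promoters, 3 times in FGB, but 37.2% of windows contain it. Its FGG match, at -32 to -25, lies beyond the printed bases. The table has a further FGB window with a start farther downstream, which holds 4 C/EBP matches and the same CTGGGAA at -143 to -137 from that start. No STAT match lay in the FGB and FGG windows and no CTGGGAA in the FGA window, which says only that these letters were not there. Of the other members, 3 had a promoter in the table. SERPINA1 had a C/EBP match in 1 of its 2 windows, LCN2 had a C/EBP match and a match to the NF-κB motif at -175 to -166, present in 10.8% of windows, and SERPINA3 had a C/EBP match alone. Other motifs scanned in these windows are not reported here, so those given are not the whole scan. The letters were a description of sequence and not a measure of binding.

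FGB was by far the most abundant fibrinogen transcript in these cells. Per kilobase of exon, control libraries held 37.7 ± 0.980 CPM of FGB (SD, n = 3), 0.413 ± 0.0653 CPM of FGG and 0.330 ± 0.127 CPM of FGA. The level of FGB per kilobase was thus 115 times that of FGA and 91.4 times that of FGG in controls, and 103 and 114 times with SMIP34. In single libraries the ratio to FGA ran from 90.3 to 199 and the ratio to FGG from 69.5 to 320, and FGB made up 98.1 to 98.9% of the counts on the 3 genes. The mRNAs of the 3 chains, which join in equal number in the protein, were present at very unequal levels in every library.

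Ordered by control level per kilobase, LCN2 came first (56.4 ± 2.85 CPM, SD, n = 3), followed by FGB. C3 (6.96 ± 0.144 CPM per kilobase), SERPINA1 (6.10 ± 0.0637) and SAA1 (5.83 ± 1.36) formed a middle group. SERPINA3 (0.814 ± 0.233), SAA2 (0.479 ± 0.0415), FGG and FGA came last, under 1 CPM per kilobase. The control libraries of neighbours in this order overlapped for SERPINA1 and SAA1, for SAA2 and FGG, and for FGG and FGA, and those of the other neighbours did not. With the length of the longest annotated transcript in place of the summed exons, SERPINA3 and SAA2 changed places and the rest kept theirs. Among the 13408 genes tested, 87.8% had a lower control level per kilobase than LCN2 and 82.1% a lower level than FGB. Only 4.9% lay below FGA and 6.27% below FGG.

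**Figure D1:**
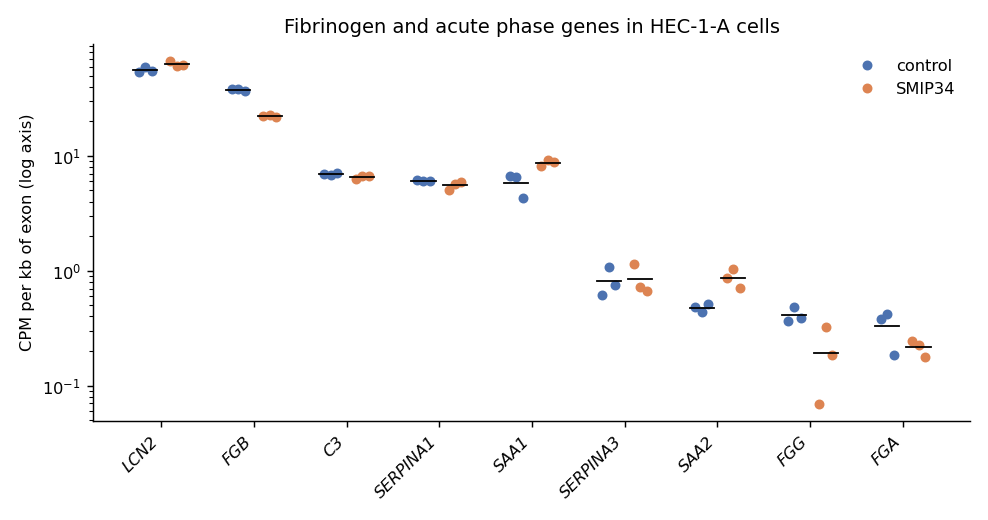
CPM per kilobase of exon on a log axis for the 9 genes, ordered by control mean, with a point for each of the 3 control and 3 SMIP34 libraries and a line at each group mean. LCN2 and FGB stand above 20, C3, SERPINA1 and SAA1 between 4 and 10, and the other 4 genes near or below 1.

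With SMIP34, FGB was at 0.588 times its control level, and the low FGA and FGG transcripts were lower as well. FGB measured 139, 139 and 133 CPM in control replicates 1, 2 and 3 and 80.1, 82.3 and 79.0 CPM in SMIP34 replicates 1, 2 and 3. The groups were far apart and the libraries of each lay close together. On the log2 scale the difference, SMIP34 minus control, was -0.77 (SE 0.035), and it ranged from -0.79 to -0.75 when each library was left out in turn. In RNA from whole cultures, fewer cells that express FGB and less FGB RNA per cell cannot be told apart.

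FGA, the Aα chain, had 1.49, 1.66 and 0.722 CPM in the controls and 0.957, 0.878 and 0.693 CPM with SMIP34. Control replicate 3 was as low as the treated libraries, so the groups overlapped. The log2 difference was -0.61 (SE 0.32), from 80 counts in all controls and 55 in all treated libraries. It was -0.37 without control replicate 2, -0.90 without control replicate 3 and -0.14 in DESeq2 with its normal prior on fold changes.

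FGG, the γ chain, had 0.721, 0.966 and 0.770 CPM in the controls and 0.137, 0.647 and 0.370 CPM with SMIP34. All treated libraries were below all controls, but SMIP34 replicate 2 came close to the lowest control, and SMIP34 replicate 1 rested on 3 reads. The log2 difference was -1.09 (SE 0.42), from 51 and 25 counts. FGG passed the filter on low counts through its controls, since 2 of the 3 SMIP34 libraries had fewer than 10 counts, so a difference was built into its passing. The log2 difference was -0.69 without SMIP34 replicate 1, -1.68 without SMIP34 replicate 2 and -0.16 in DESeq2 with its normal prior. The mean log2 difference of the 3 chains was -0.82. Exact 95% intervals of the summed count ratio, which cover counting error only, were 0.568 to 0.608 for FGB, 0.455 to 0.932 for FGA and 0.276 to 0.766 for FGG. They leave out the spread between libraries, in which the FGA groups overlapped. They are not a test of the difference, since the same contrast chose the genes.

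The tested neighbours of the cluster did not pass the threshold. PLRG1, a splicing factor gene whose start lies at -12.5 kb from that of FGB, measured 67.1, 61.5 and 61.1 CPM in controls and 62.8, 58.7 and 59.5 CPM with SMIP34. The groups overlapped (log2 difference -0.07, SE 0.045, adjusted p = 0.276, quasi-likelihood test of edgeR with Benjamini-Hochberg adjustment). LRAT, the retinol acyltransferase gene on the other side, had 6.29 ± 0.341 and 6.37 ± 0.218 CPM (SD, n = 3 each; log2 difference 0.02, SE 0.12, adjusted p = 0.933 in the same edgeR fit). DCHS2 and RBM46, farther out, were not tested, with 11 and 0 counts in all controls and 14 and 2 in all SMIP34 libraries.

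**Figure D2:**
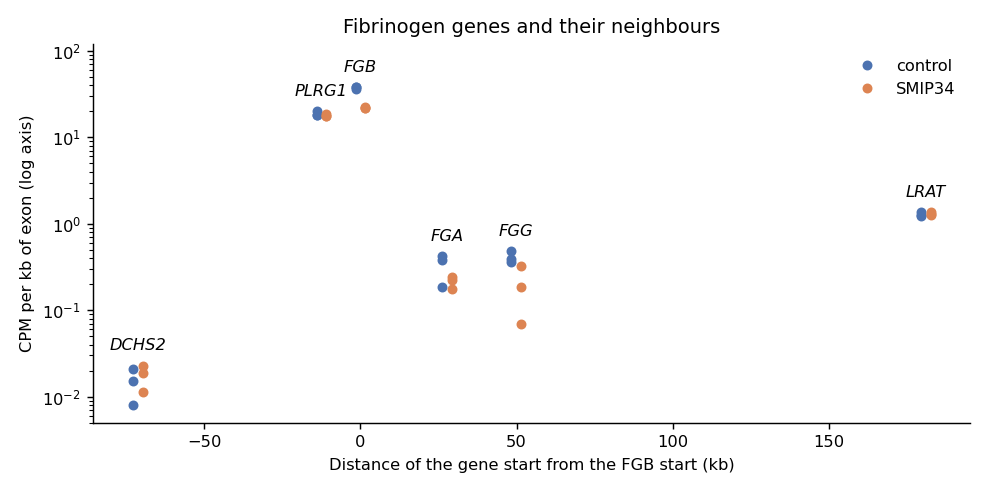
CPM per kilobase of exon on a log axis against the distance of each gene's start from the FGB start in kb, with a point for each control and SMIP34 library. FGB is high and lower with SMIP34, PLRG1 and LRAT overlap between the groups, FGA and FGG are 69.5 to 320 times below FGB, and RBM46, at 0 in most libraries, is not drawn.

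The serum amyloid A genes were higher with SMIP34, in the opposite direction to fibrinogen. SAA1 and SAA2 encode small apolipoproteins of high-density lipoprotein and are among the most inducible acute phase products of the liver. SAA1 (chr11:18287808-18291523, plus strand) had 4.53, 4.41 and 2.89 CPM in the controls and 5.51, 6.24 and 5.96 CPM with SMIP34. The groups did not overlap, and control replicate 3 was the lowest of the 6. The log2 difference was 0.58 (SE 0.15), with 0.40 when control replicate 3 was left out and 0.34 in DESeq2 with its normal prior.

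SAA2 (chr11:18259780-18270221, minus strand) had 1.13, 1.01 and 1.20 CPM in the controls and 2.01, 2.40 and 1.66 CPM with SMIP34. The groups did not overlap, and the log2 difference was 0.86 (SE 0.24), or 0.28 in DESeq2 with its normal prior. The 2 genes are near copies. Of the 50-base windows of SAA1 transcripts, 34.2% also occur in SAA2, and 18% of those of SAA2 occur in another gene. All counts on both genes were whole numbers, so no read divided between them was included, yet the split between the 2 genes is uncertain. The ratio of SAA1 to SAA2 counts ran from 2.40 to 4.36 in controls and from 2.60 to 3.58 with SMIP34. The readthrough gene SAA2-SAA4 shares 306 of the 2331 exon bases of SAA2 on the same strand, and how reads on the shared bases were assigned is not settled by the counts, which were whole too. SAA2-SAA4 was at 0.613 ± 0.178 CPM in controls and 1.09 ± 0.162 CPM with SMIP34 (SD, n = 3 each; log2 difference 0.82, SE 0.33, adjusted p = 0.0524, edgeR). SAA4 itself had 2 counts in all controls and 9 in all SMIP34 libraries. HPS5 and SAAL1, farther out in the region, had log2 differences of -0.01 (adjusted p = 0.919) and 0.03 (adjusted p = 0.735) in that edgeR fit.

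LCN2 (chr9:130911732-130915734, plus strand), a siderophore-binding protein of innate immunity, had 44.6, 49.0 and 45.4 CPM in the controls and 55.0, 50.3 and 50.9 CPM with SMIP34. The treated libraries were all above the controls, by little in SMIP34 replicate 2. The log2 difference was 0.17 (SE 0.049), and 0.26 with offsets for a trend on gene length.

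C3 and SERPINA1 were slightly lower with SMIP34, and SERPINA3 showed no steady direction. C3 (chr19:6677846-6720662, minus strand), the central complement component, had 35.5, 34.8 and 36.2 CPM in the controls and 31.9, 33.8 and 34.2 CPM with SMIP34. These 6 values lay within a narrow range, though the groups did not overlap (log2 difference -0.09, SE 0.052). Of the transcript windows of C3, 11% also occur in another annotated gene.

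SERPINA1 (chr14:94843084-94857029, minus strand), which encodes the elastase inhibitor α1-antitrypsin, had 22.8, 22.3 and 22.4 CPM in the controls and 18.8, 21.1 and 21.8 CPM with SMIP34. Here SMIP34 replicate 1 stood below the other 2 treated libraries. The log2 difference was -0.13 (SE 0.068), and -0.07 without that library. SERPINA3 (chr14:95078714-95090390, plus strand), which encodes α1-antichymotrypsin, had 0.979, 1.70 and 1.20 CPM in the controls and 1.82, 1.16 and 1.06 CPM with SMIP34. The groups overlapped and the log2 difference was 0.05 (SE 0.28). It ranged from -0.24 without SMIP34 replicate 1 to 0.30 without control replicate 2. SERPINA5, of the same serpin cluster, had 2.18 ± 0.200 and 2.22 ± 0.232 CPM (SD, n = 3 each; log2 difference 0.03, adjusted p = 0.928, edgeR), and 29.4% of the transcript windows of SERPINA3 also occur in an overlapping annotated gene without a name.

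Spread between replicates differed by level. Within groups, the SD of log2 CPM was 0.034 for FGB, 0.044 for C3, 0.071 for LCN2 and 0.080 for SERPINA1. It was 0.20 for SAA2 and 0.26 for SAA1, and reached 0.38 for SERPINA3, 0.45 for FGA and 0.61 for FGG. Across the 9 genes the median log2 difference was -0.09, against -0.0022 over all genes tested. For completeness, 5 of the 9 had an adjusted p under 0.05 (FGB and FGG lower, LCN2, SAA1 and SAA2 higher), a threshold that 34.6% of all genes passed. Adding an absolute log2 fold change over 0.5 left 4 of the 9, against 3.31% of all genes. The groups did not overlap for 7 of the 9, as for 44.5% of all genes. FGG left the first count in both DESeq2 fits, without a filter on low counts, with length offsets and in 5 of the 6 fits without 1 library (all but that without SMIP34 replicate 2). LCN2 left it without control replicate 1 or SMIP34 replicate 1, and SAA2 without SMIP34 replicate 2. Nothing is read from these counts, since the same contrast chose the genes.

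**Figure D3:**
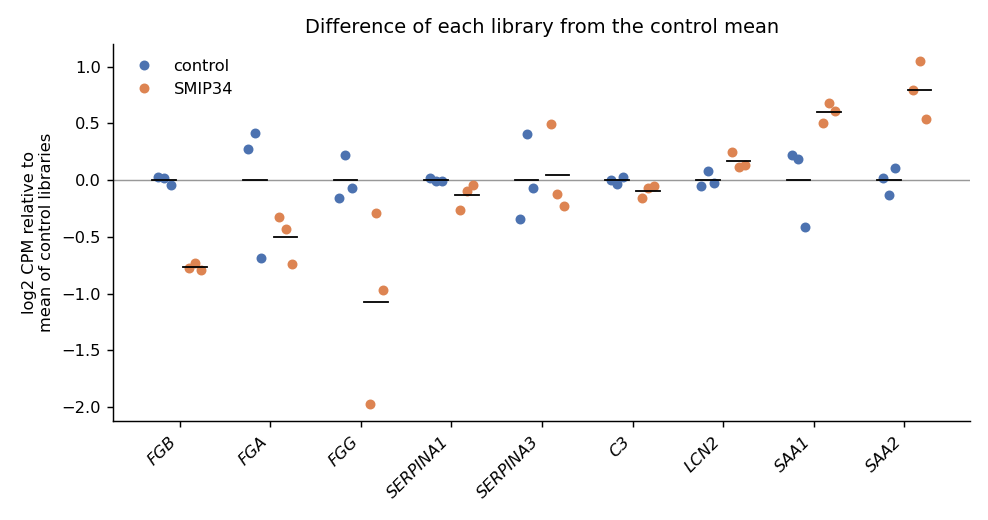
log2 CPM, computed with a prior count of 2, relative to the mean of the control libraries, with a point for each control and SMIP34 library and a line at each group mean. FGB sits near -0.77 in all SMIP34 libraries, and FGA and FGG are lower but scattered. C3 and SERPINA1 lie slightly below 0 in all SMIP34 libraries, and SERPINA3 is scattered on both sides of it. LCN2, SAA1 and SAA2 lie above 0 in all SMIP34 libraries.

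Genes of related pathways were taken from 7 lists with 199 names in all, of which 198 were in the tables and 97 had enough counts for a test. At an adjusted p under 0.05, 40 of the 97 changed (41.2%, against 34.6% of all genes), 23 higher and 17 lower. With the fold limit there were 10 (6 higher and 4 lower), and over all genes 1.44% passed both thresholds as higher and 1.87% as lower. The median log2 fold change of the 97 was 0.02. All adjusted p-values of these genes are from the edgeR fit across all genes.

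Most plasma proteins of the liver response were hardly transcribed. Of 30 other acute phase genes, 23 had too few counts to be tested and 10 had no count in any library. CRP, ORM1 and LBP, which encode C-reactive protein, α1-acid glycoprotein and the lipopolysaccharide-binding protein, had 0 counts in all 6 libraries, which allows up to 0.137 to 0.155 CPM each at a floor of 3 counts per library. The haptoglobin gene HP had 1 count. Of the 7 tested, 1 rose and 3 fell, with a median log2 fold change of -0.11. The increase was in the metallothionein gene MT2A, from 382 ± 7.54 to 445 ± 21.8 CPM (SD, n = 3 each; log2 fold change 0.22, SE 0.031, adjusted p = 2.9e-06). The largest decrease was in TIMP1, an inhibitor of matrix metalloproteinases, from 179 ± 6.28 to 151 ± 2.38 CPM (log2 fold change -0.24, SE 0.032, adjusted p = 1.4e-06). FTL and FTH1, the ferritin chains and the most abundant of the list, fell by 0.11 each on the log2 scale.

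Of 26 negative acute phase and hepatocyte plasma protein genes, 3 were tested and 1 fell (median log2 fold change -0.09). It was AMBP, which encodes α1-microglobulin and bikunin. AMBP measured 17.4, 14.6 and 15.2 CPM in the controls and 9.80, 10.9 and 10.6 CPM with SMIP34. The groups were well apart (log2 fold change -0.59, SE 0.089, adjusted p = 1.1e-05).

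Coagulation and fibrinolysis genes included several of the plasminogen activator system, which dissolves fibrin. Of 33 genes, 17 were tested, and 6 rose and 2 fell (median log2 fold change 0.01). PLAT, tissue plasminogen activator, rose from 3.65 ± 0.462 to 6.07 ± 0.882 CPM (SD, n = 3 each; log2 fold change 0.73, SE 0.15, adjusted p = 3.8e-04), with a log2 fold change of 0.43 in DESeq2 with its normal prior. PLAUR, the urokinase receptor, rose from 22.9 ± 1.93 to 33.9 ± 1.34 CPM (log2 fold change 0.56, SE 0.063, adjusted p = 1.0e-07). TFPI, the tissue factor pathway inhibitor, fell from 96.9 ± 2.81 to 80.1 ± 1.52 CPM (log2 fold change -0.27, SE 0.037, adjusted p = 1.8e-06). Prothrombin (F2), plasminogen (PLG) and kininogen (KNG1) transcripts had 6, 0 and 0 counts in the controls and 2, 0 and 1 with SMIP34.

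Complement genes went both ways. Of 26, 12 were tested, 2 rose and 3 fell (median log2 fold change -0.06). CD55, which protects cells from complement, rose from 27.6 ± 0.446 to 37.1 ± 0.532 CPM (SD, n = 3 each; log2 fold change 0.43, SE 0.053, adjusted p = 5.2e-07). C1R, the protease of the first component, fell from 1.96 ± 0.227 to 1.17 ± 0.0324 CPM (log2 fold change -0.74, SE 0.24, adjusted p = 0.0157). The C1R call was lost without control replicate 1 (adjusted p = 0.0697) and in both DESeq2 fits (0.0567 and 0.0566). The other gene past the fold limit was C1RL, a C1R-like protease under 1 CPM on average, named after its values were seen. It was at 0.943 CPM in controls and 0.414 CPM with SMIP34 (log2 fold change -1.17, SE 0.37, adjusted p = 0.0152). At so low a treated level, C1RL, like FGG, passed the filter on low counts through its controls. A difference was thus built into its passing, and nothing is read from its call. That call was not followed in DESeq2 or in the fits without 1 library.

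Genes of the IL-6, IL-1 and STAT3 pathway drive the acute phase in liver. Of 32, 26 were tested, and 8 rose and 1 fell (median log2 fold change 0.13). Those that passed were 34.6% of the tested genes of the list, the same share as over all genes. IL6 itself had 1 count over the 6 libraries. LIF, a relative of IL-6, was abundant at 105 ± 2.07 CPM in controls and 102 ± 2.99 CPM with SMIP34 (SD, n = 3 each; log2 difference -0.04, adjusted p = 0.371, edgeR). JAK1, the kinase that IL-6 family receptors use, measured 3.14, 3.47 and 3.66 CPM in the controls and 6.52, 6.94 and 6.70 CPM with SMIP34. Its groups were far apart (log2 fold change 0.96, SE 0.13, adjusted p = 3.1e-06, and 0.60 in DESeq2 with its normal prior).

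IL6ST, the shared receptor chain gp130, rose from 116 ± 2.78 to 138 ± 4.16 CPM (SD, n = 3 each; log2 fold change 0.26, SE 0.034, adjusted p = 1.3e-06). STAT3, the transcription factor downstream of it, rose from 114 ± 3.58 to 129 ± 4.53 CPM (log2 fold change 0.18, SE 0.035, adjusted p = 2.6e-04). BCL3, a nuclear IκB protein, rose from 17.7 ± 0.142 to 25.5 ± 1.27 CPM (log2 fold change 0.52, SE 0.066, adjusted p = 7.1e-07). The low cytokine genes of the list differed in direction. IL11 rose from 1.06 ± 0.312 to 1.82 ± 0.237 CPM (log2 fold change 0.77, SE 0.26, adjusted p = 0.0223), and this call was lost without control replicate 3 (0.121), without SMIP34 replicate 1 (0.103) and in both DESeq2 fits (0.0680 and 0.0681). CTF1, which encodes cardiotrophin 1, fell from 5.31 ± 0.191 to 3.17 ± 0.428 CPM (log2 fold change -0.74, SE 0.15, adjusted p = 3.2e-04, and -0.43 in DESeq2 with its normal prior). The receptor gene IL6R (log2 difference 0.16, SE 0.075, adjusted p = 0.0912) passed the threshold without SMIP34 replicate 3 alone (0.0369), and SOCS3, the feedback inhibitor that STAT3 induces, did not pass it (0.31, SE 0.18, adjusted p = 0.195).

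The transcription factors known for acute phase promoters moved in both directions. Of 24, 22 were tested, 5 rose and 5 fell (median log2 fold change 0.04). HNF4A was low, at 1.88 ± 0.311 and 1.43 ± 0.311 CPM (SD, n = 3 each; log2 difference -0.40, SE 0.24, adjusted p = 0.203).

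CEBPB, the C/EBP factor also known as NF-IL6, measured 77.8, 78.2 and 80.8 CPM in the controls and 63.0, 61.0 and 63.0 CPM with SMIP34. All treated libraries were below all controls (log2 fold change -0.34, SE 0.039, adjusted p = 1.3e-07). CEBPA and CEBPD were nearly level, with log2 differences of 0.03 (SE 0.10, adjusted p = 0.841) and -0.0031 (SE 0.061, adjusted p = 0.974). NFKBIZ, the IκBζ coactivator of NF-κB targets such as LCN2, rose from 33.1 ± 1.90 to 43.4 ± 1.19 CPM (SD, n = 3 each; log2 fold change 0.39, SE 0.052, adjusted p = 1.5e-06). FOXA1, a pioneer factor, rose from 2.41 ± 0.186 to 3.47 ± 0.362 CPM (log2 fold change 0.53, SE 0.18, adjusted p = 0.0208). The FOXA1 call was lost without control replicate 2 (0.0685), control replicate 3 (0.0528) or SMIP34 replicate 2 (0.104) and in both DESeq2 fits (0.0696 and 0.0693).

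**Figure D4:**
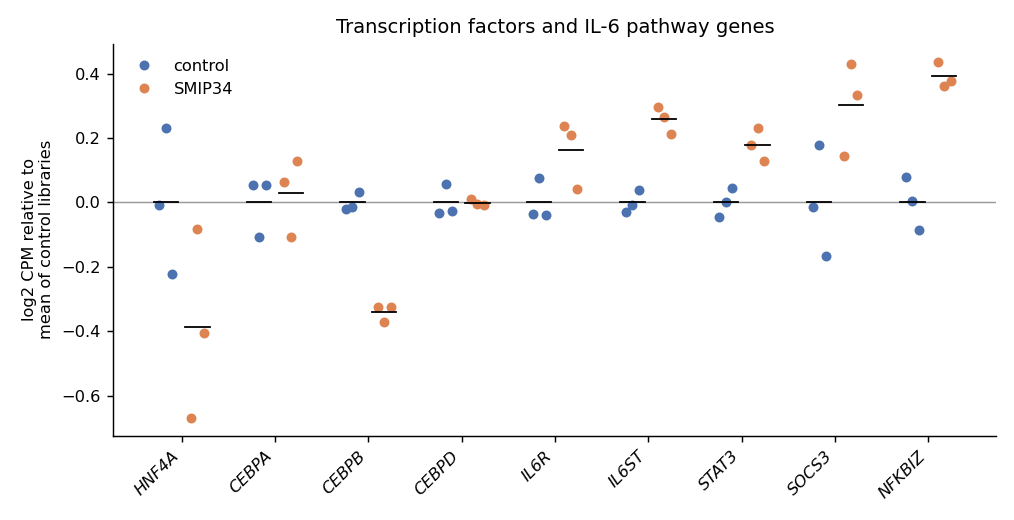
log2 CPM, computed with a prior count of 2, of transcription factors and IL-6 pathway genes relative to the mean of the control libraries, with a point for each library and a line at each group mean. CEBPB lies below 0 in all SMIP34 libraries, IL6ST, STAT3 and NFKBIZ lie above it, and HNF4A, CEBPA, CEBPD, IL6R and SOCS3 overlap with the controls.

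Among other lipocalins and serpins, 27 of 28 names were in the tables and 10 were tested. Of these 1 rose and 2 fell (median log2 fold change -0.06). SERPINB9, an inhibitor of granzyme B, rose from 12.8 ± 0.727 to 16.1 ± 0.744 CPM (SD, n = 3 each; log2 fold change 0.33, SE 0.080, adjusted p = 0.0020). SERPINB6 fell from 79.3 ± 1.23 to 72.9 ± 3.50 CPM (log2 fold change -0.12, SE 0.040, adjusted p = 0.0199). That call was lost without control replicate 1 (0.0501), control replicate 2 (0.0760) or SMIP34 replicate 3 (0.159), in both DESeq2 fits (0.0550 and 0.0551) and with length offsets (0.0982).

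**Figure D5:**
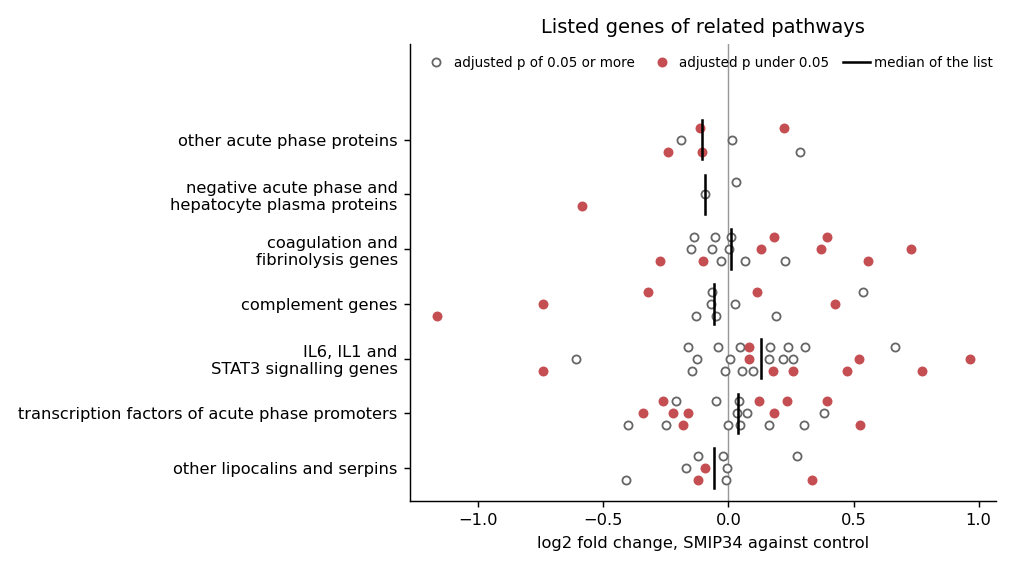
log2 fold change, SMIP34 against control, of the 97 tested genes of the 7 lists, filled in red where the adjusted p was under 0.05, with a vertical line at the median of each list. Medians lie between -0.11 and 0.13, and most of the filled points lie within 0.5 of 0.

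Genes with profiles nearest to the fibrinogen chains were sought over the 6 libraries, as the root mean square difference in log2 CPM relative to the control mean, among 9906 genes with at least 10 CPM on average. The mean profile of the 3 chains carries the spread of FGA and FGG (within-group SD 0.45 and 0.61, against 0.034 for FGB). It also carries the difference built into FGG, which passed the filter on low counts through its controls. To the mean of FGA, FGB and FGG, the nearest were SLC3A1, a subunit of a cystine transporter (difference 0.16), NUPR1, a stress-induced nuclear protein (0.17), TM4SF4, a tetraspanin-like membrane protein (0.19), TMEM27, or collectrin (0.21), and HOGA1, a mitochondrial enzyme (0.21). SLC3A1 was at 22.6 CPM in controls and 12.8 CPM with SMIP34. With a minimum of 1 CPM, 2 of these 5 genes remained among the nearest 5, SLC3A1 and NUPR1, and LOC100507634 (0.12) and CELF5 (0.16) came before them. To FGB alone, a comparison added after the data were seen, the nearest was NUPR1 (0.064), at 17.0 and 9.46 CPM, followed by the peptide hormone gene ADM2 (0.067), at 20.3 and 11.8 CPM, and the calcium-binding protein gene TESC (0.075), at 35.6 and 21.7 CPM. The nearest to SERPINA1 were PIK3AP1, MDM1 and GSTM4 (0.020 to 0.027), to C3 MYOF, ZBTB38 and RAD1 (0.018 to 0.019), and to LCN2 NDE1, CDAN1 and SORT1 (0.021 to 0.028).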

How the data were processed

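RNA of HEC-1-A cells was sequenced from 3 control and 3 SMIP34 libraries (20 µM, 24 h), grouped by their labels, and none was left out. The authors deposited estimated counts per gene, which per the file headers were made with featureCounts 1.5.0-p1 on the hg19 annotation, by strand and with a minimum mapping quality of 2. Fractions of reads that map to several places were allowed. The labels name HISAT2, whereas the methods name other tools, and kits of different makers are given without saying which library each was used for. Labels do not state that replicates were separate cultures, so p-values measure the spread between these samples. Counts were rounded, filtered with filterByExpr (13408 genes) and scaled by TMM. Groups were compared in edgeR 4.0.16 (R 4.3.3), by quasi-likelihood, with Benjamini-Hochberg adjustment. A call needed an adjusted p under 0.05 and, where stated, an absolute log2 fold change over 0.5. Named genes were the 9 members, a fixed set of regulators, and from each list the genes past both thresholds and the largest rise and fall, with at least 1 CPM, of which a few are left out here. The members and lists were chosen with earlier results of these data known. Alternatives were DESeq2 1.42.0, limma 3.58.1 (voom), other scalings, filters and thresholds, length offsets, a replicate block and leaving out each library. The edgeR procedure was tested on simulated counts with a common spread for all genes and changes only in genes above 1 CPM. That test did not cover changes in lower genes such as FGG. Figures were drawn with matplotlib 3.10.9.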

Additional observations from a re-analysis of the deposited data

How the results depend on the processing

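The mean log2 difference of FGA, FGB and FGG (-0.82) lay between -1.04 and -0.69 when 1 library was left out and was -0.35 in DESeq2 with its normal prior. Over all genes, 444 passed both thresholds (389 to 448 with 1 library left out), against 117 in DESeq2 with its normal prior, 104 with a log2 limit of 1 and 4645 without a fold limit. Of the listed pathway genes, 10 passed (7 to 10 with 1 library left out), against 6 in DESeq2 without shrinkage, 1 with its normal prior, 1 with a log2 limit of 1 and 40 without a limit. Among the fits without 1 library, the count of listed genes was lowest, at 7, without control replicate 1 and without SMIP34 replicate 1. The cause of these differences was not tested. Libraries with the same replicate number did not deviate together (correlations of -0.028, 0.0328 and -0.0109), which does not settle whether they were prepared together. A fit with the replicate number as a block called 453 genes and again 10 listed genes, with a mean of -0.82 for the 3 chains. FGB, SAA1, SAA2, LCN2, C3, SERPINA1, FGA and FGG kept their direction under every alternative run, and SERPINA3 did so in 15 of 18. With at least 1 CPM in 3 libraries, FGA and FGG were filtered out. With 25 to 80 counts a group, FGA and FGG carry the least precision of the 9. The mean of the 3 chains shares that limit, and FGG passed the filter on low counts through its controls.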

Other observations

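Beside the genes named by rule, several listed genes passed the threshold and were picked here after their values were seen (edgeR, adjusted over all genes, SD with n = 3 per group). PLAU, the urokinase that activates plasminogen and binds the receptor encoded by PLAUR, rose from 362 ± 4.96 to 474 ± 7.83 CPM (log2 fold change 0.39, adjusted p = 7.8e-12). TFPI2, a Kunitz-type inhibitor related to TFPI, rose from 14.6 ± 0.246 to 18.8 ± 0.809 CPM (0.37, adjusted p = 2.8e-04), opposite to TFPI itself. The NF-κB subunit genes NFKB1 (0.23, adjusted p = 7.0e-05) and RELA (0.18, adjusted p = 6.4e-04) rose, as did PIM1, a kinase gene that STAT factors induce, from 11.8 ± 0.592 to 16.4 ± 0.317 CPM (0.47, adjusted p = 3.9e-05). The complement gene C5 fell from 21.7 ± 1.52 to 17.4 ± 0.915 CPM (-0.32, adjusted p = 0.0010), and the stress factor gene DDIT3 fell from 39.8 ± 2.29 to 34.0 ± 2.53 CPM (-0.22, adjusted p = 0.0035).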
